A study of Homo sapiens with 6 samples.

Results

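Replication-dependent histone genes and linker histone genes were described in messenger RNA of MDA-MB-231 cells, a human breast cancer line of mesenchymal character that lacks the hormone receptors. Members were chosen by current gene symbol alone, as H1 followed by a number, or as H2A, H2B, H3 or H4 followed by C and a number. Described here are 72 genes that the rule selects, of which 9 were H1, 17 H2A, 18 H2B, 13 H3 and 15 H4 genes, and 25 of the 72 had a row among the 28979 gene IDs of the count tables. There were 6 libraries, 3 labelled Ang and 3 labelled Con, all from the same line with no genetic change named in the labels. The design describes MDA-MB-231 cells given exosomes, small secreted vesicles, from hypertrophic or from normal cardiomyocytes, in a study whose title names the AC16 line, and its stated aim was to find targets of microRNAs. The labels do not spell out Ang or Con, give no dose or exposure time, and do not state that the libraries of a group were grown apart. The p-values below therefore describe the spread among libraries, and that spread may be technical.

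Histones H2A, H2B, H3 and H4 form the core around which DNA is wrapped, and linker histone H1 binds where the DNA enters and leaves that core. Replication-dependent histone genes lie in clusters and are transcribed mainly while DNA is copied. Their usual mRNA is not polyadenylated but ends just after a stem-loop bound by SLBP, so that selection on oligo-dT beads recovers it poorly, while some of these genes also make polyadenylated mRNA. H1-10 stands outside the clusters, is expressed independently of DNA replication and has polyadenylated mRNA. These libraries were made from RNA bound to poly-T beads.

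The 3′ ends of 4 genes that carry the results are shown first, because the stem-loop and the polyadenylation signal are the features on which poly-A selection could act. Sequences are from GENCODE 29 transcripts on GRCh38, 5′ to 3′ on the transcript strand, and capitals mark the AATAAA signal in the first 3 lines and the stem-loop in the last 3. The stem-loop was searched on the transcript strand as GG, any 3 bases, TT, any base, T, any base, A, any 3 bases and CC, with the 6 outer bases of each side able to pair.
H1-10, signal at chr3:129314778-129314801, minus strand: tttgggcacAATAAAgcgtttaaa
H2AC6, signal at chr6:26139079-26139102, plus strand: gcatgaggtAATAAAaggtaatgc
H2BC5, signal at chr6:26158606-26158629, plus strand: catgttttcAATAAAtgagttgta
H2AC6, stem-loop at chr6:26124664-26124689, plus strand: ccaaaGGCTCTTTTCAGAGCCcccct
H2BC5, stem-loop at chr6:26158582-26158607, plus strand: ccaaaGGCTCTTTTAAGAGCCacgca
H4C9, stem-loop at chr6:27139649-27139674, plus strand: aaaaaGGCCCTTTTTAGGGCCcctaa

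The signal lay 16 bases before the annotated end in H1-10, and no stem-loop was found there. In H2AC6 the stem-loop lay 1128 bases before the end of the longer transcript, which runs on to an AATAAA 23 bases from its end. In H2BC5 the stem-loop lay 39 bases before the end of a short transcript, with the AATAAA shown 21 bases from that end, and a longer transcript has another AATAAA 19 bases from its own end. In H4C9 the stem-loop lay 212 bases before the annotated end, and no AATAAA was found in the last 50 bases. H1-2 and H2BC12 have models that stop with the coding sequence in GENCODE 29, so their 3′ ends were not searched. Counting protein-coding transcripts of 19684 genes only, the stem-loop letters stood in the last 100 bases of a transcript in 17 genes (0.0864%), 11 of them members, and AATAAA stood in the last 50 bases in 13748 genes (69.8%), 21 of them members. A match describes these letters only.

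Total counts were 3482629, 3961442 and 3596124 in Ang libraries 1 to 3, and 4807007, 5437190 and 3369212 in Con libraries 1 to 3. Levels are given as CPM, the count scaled to the library size. Where a gene was at 0, as many as 3 counts (0.552 to 0.890 CPM) remain possible in a library. This limit covers counting error only, since PCR copies were not told apart by molecular identifiers. Con 2 stood apart by strand. Over 250 pairs of a non-coding gene lying under a protein-coding gene on the other strand, the non-coding partner had the more counts per base, with library median ratios of 35.0, 32.9 and 35.4 in Ang and 39.3, 23.2 and 41.1 in Con. The protocol mentions no strand-marking reagent, and the counter's strand setting is not given in the sources used here. GENCODE 29 genes free of other-strand exons held 24.2%, 25.5% and 23.8% of counts in Ang, and 23.3%, 28.7% and 21.7% in Con. A gene's count may hold mainly reads from the opposite strand, which was not tested. Every count below, and the detection by 3′ end, is uncertain as a measure of the named gene's RNA. Of the markers that MDA-MB-231 cells should express, VIM, the mesenchymal filament protein, had 1033 ± 49.6 CPM in Ang and 928 ± 152 CPM in Con (SD, n = 3 each), and CD44, an adhesion receptor, had 498 ± 26.8 CPM in Ang and 426 ± 49.1 CPM in Con. Of the 10 genes on that list 9 were tested, and SPARC, which was not, averaged only 0.239 CPM over all libraries. From the list of low markers, ESR1, the oestrogen receptor, averaged 0.308 CPM over all libraries. ERBB2 at 105 CPM and KRT19, an epithelial keratin, at 108 CPM were not near 0 although they stood in the list of low markers. Of 14 cardiomyocyte markers, 9 had a row and 2 were tested, TTN and NPPA. The defining markers TNNI3, MYH6, MYL2, ACTN2 and RYR2 had 0 to 8 counts in a library. TTN had 814, 817 and 843 counts in Ang and 1379, 1139 and 925 in Con and so held most of the list's counts. Per kilobase of its 118976 exon bases, TTN had only 1.93 CPM in Ang and 2.17 CPM in Con. The summed level of that list ran from 215 to 248 unscaled CPM (the count over the library total, without TMM) in Ang and from 224 to 294 in Con, and its part in the histone results was not tested.

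Few histone genes were detected, and H1-10 and H4C9 held most of the counts of those described. The 25 listed members were 34.7% of the 72, against 79.5% of 19951 protein-coding genes of GENCODE 29. The tables hold no gene ID with 0 in all 6 libraries, and the 47 members without a row are not analysed further. The listed members held 6160 counts in all, of which H1-10 had 69.6%, H4C9 21.6% and H1-2 2.89%. Libraries held a count for 14, 9 and 13 members in Ang, and for 9, 17 and 7 members in Con. Con 2, the deepest library, had the most, while Con 1, the next deepest, had 9 and the shallower Ang 1 had 14. Con 2 also had the lowest median ratio over the strand pairs, 23.2, whose part in these numbers was not tested. Only 5 members had a count in all 6 libraries, which were H1-10, H1-2, H2AC6, H2BC12 and H4C9, while 10 had a count in 1 library only.

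**Figure D1:**
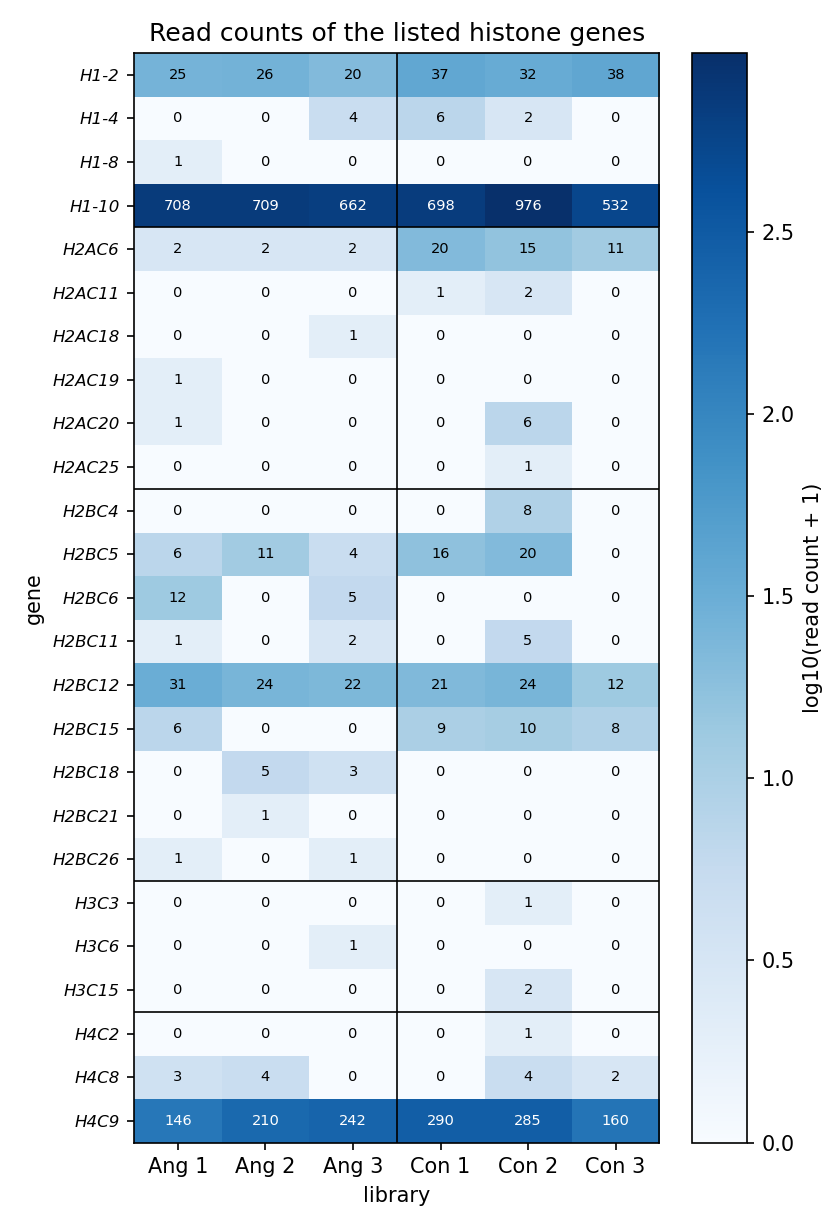
Read counts of 25 listed histone genes (rows, grouped as H1, H2A, H2B, H3 and H4) in the 3 Ang and 3 Con libraries (columns); colour is log10 of the count + 1. H1-10 and H4C9 are dark in every library, and H2AC6 has 2 counts in each Ang library.

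Of the H1 genes described, 4 of 9 were listed, against 9 of 18 for H2B, 6 of 17 for H2A, 3 of 13 for H3 and 3 of 15 for H4. These H1 genes held 72.7% of the counts. H3 had the fewest counts: H3C3 and H3C6 had 1 count each and H3C15 had 2, in a total of 4 counts over all libraries. By position, 14 of the 53 members in the large chromosome 6 cluster had a row, and 6 of the 11 in the chromosome 1 cluster at band q21. Outside the clusters lay 4 members, 2 of them listed, with 4286 counts.

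Detection differed with the annotated 3′ untranslated region. A stem-loop was counted anywhere in a transcript, AATAAA only in the last 50 bases, and the stem-loop lay in the last 100 bases of a protein-coding transcript in 11 members. Each was scored per gene over all its transcripts, so both need not lie in the same transcript. Of 38 members whose model has a 3′ untranslated region, 21 were listed (55.3%), against 3 of 32 (9.38%) without one, which were H1-2, H2BC12 and H2AC20. Members with both a stem-loop and AATAAA numbered 20, of which 12 were listed with 189 counts in all. No AATAAA stood beside the stem-loop in 11 members, of which 5 were listed, and H4C9 held most of their 1345 counts. AATAAA without a stem-loop stood in 3 members, H1-8, H1-10 and H2BC11, all listed, with 4294 counts, of which H1-10 held 4285. Longer models collect more reads, and the median exon length was 1279 bases in listed members and 411 bases in the others. Unlisted H3C4, H2AC7, H2AC17 and H3C12, without a 3′ untranslated region, shared 44.6% to 100% of exon bases with another same-strand gene. Annotation, length, overlap and detection therefore cannot be told apart here.

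**Figure D2:**
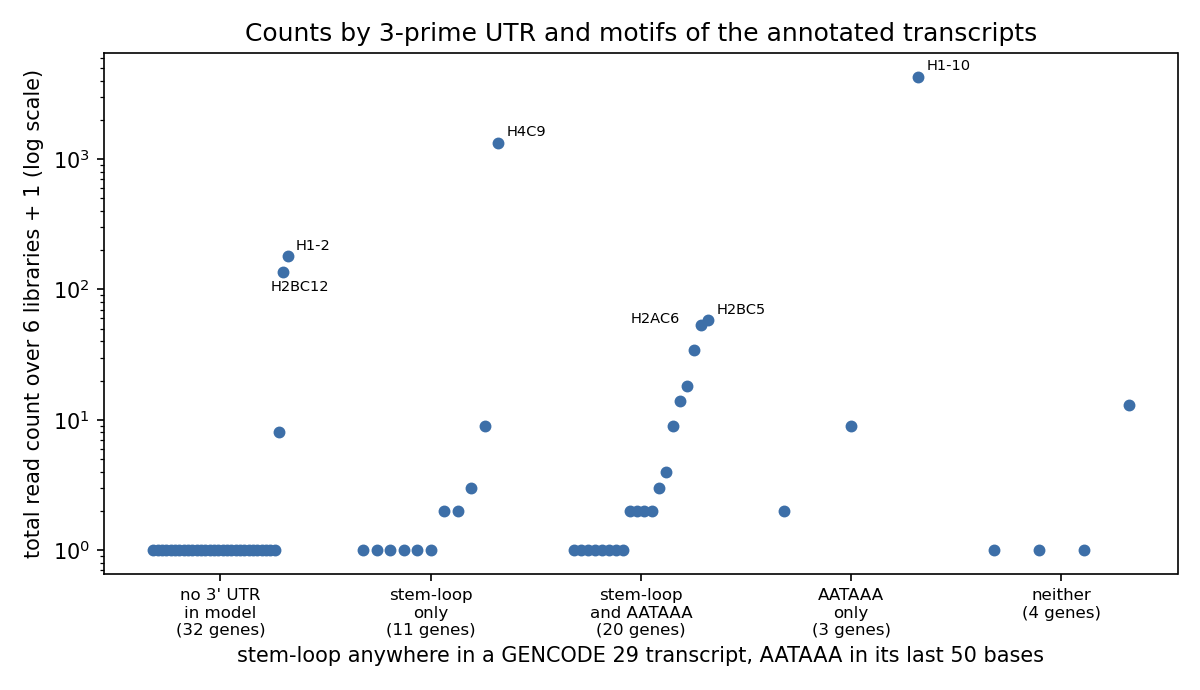
Total read count + 1 over the 6 libraries (log scale) of each of 70 histone genes with a GENCODE 29 model, by whether the model has a 3′ untranslated region, a stem-loop anywhere in a transcript and AATAAA in the last 50 bases of a transcript, not always the same one. Points at 1 are genes without a row. H1-10 lies highest, in the class of 3 genes with AATAAA and no stem-loop, and H4C9 leads the 11 genes with a stem-loop alone.

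Copies of histone genes resemble each other, which bears on how reads were assigned. The share of a member's 50-base words found in no other GENCODE 29 gene was 94.0% at the median of the 24 listed members with a model, and under 50% in 4 of them. It was 25.9% for H2BC12, 2.91% for H2AC19 and 0% for H2AC18 and H3C15, whose counts are therefore uncertain. Among the 46 not listed it was 100% at the median and under 50% in 12.

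No member passed the threshold for Ang against Con in edgeR's quasi-likelihood test, with p adjusted by Benjamini-Hochberg over all 14547 genes tested. Of the members described, 6 passed edgeR's filter on low counts, and 0 of them were called, as were 0 genes in the whole table (0.0%), with an adjusted p of 0.999 for each member. At an unadjusted p under 0.05 edgeR counted 1 of the 6, H2AC6, where the share of all genes was 3.4%. H2AC6 passed the filter through its Con libraries alone, so this count is not read against that share. H2AC6 was lower in Ang, as were 1.98% of all genes at that level, while 0 members and 1.42% of genes were higher. DESeq2 and limma-voom also called 0 genes, with 2.83% and 3.07% of genes at an unadjusted p under 0.05 and 1 member in each. The log2 fold change was above 0 in 3 of the 6 members and below 0 in 3, where 49.2% of all genes lay above 0. Its median was -0.13 over the 6 and -0.01 over all genes. The TMM-scaled CPM of the groups did not overlap in 3 of the 6, against 8.16% of all genes. Ang lay above Con in 2 of them, H1-10 and H2BC12 (3.62% of all genes), and below Con in 1, H2AC6 (4.54% of all genes), with the same reservation. In bulk RNA, fewer cells in a given state and less RNA per cell cannot be told apart.

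Among the linker histones, H1-10 (chr3:129314771-129316277), a divergent member of the family, had 208, 179 and 191 CPM in Ang and 147, 165 and 167 CPM in Con. All Ang libraries lay above all Con libraries. The mean was 193 ± 14.5 CPM in Ang and 160 ± 10.9 CPM in Con (SD, n = 3 each). Its log2 fold change, Ang minus Con, was 0.27 ± 0.17 (SE), with a 95% interval of -0.07 to 0.61, and did not pass the test. Its gene shares 345 exon bases (22.9%) with its antisense gene H1-10-AS1, which had 941 ± 75.4 CPM in Ang and 897 ± 133 CPM in Con. H1-10-AS1 held 2.11 to 2.23 times as many counts per base as H1-10 in Ang libraries, and 2.03 to 2.72 times in Con libraries.

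H1-2 (chr6:26055787-26056428), a clustered linker histone, was far lower, at 7.34, 6.56 and 5.78 CPM in Ang and 7.81, 5.41 and 11.95 CPM in Con. Con 2 and Con 3 bracketed the rest. Its log2 fold change was -0.33 ± 0.45. H1-4 had 4 counts in Ang 3, and 6 and 2 in Con 1 and Con 2, and H1-8, the oocyte linker histone, had 1 count in Ang 1. Per kilobase of GENCODE 29 exons, H1-10 had 128 ± 9.65 CPM in Ang and 106 ± 7.22 CPM in Con, and H1-2 had 10.2 ± 1.21 CPM in Ang and 13.1 ± 5.15 CPM in Con. H1-10 was above H1-2 in both groups on this scale.

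**Figure D3:**
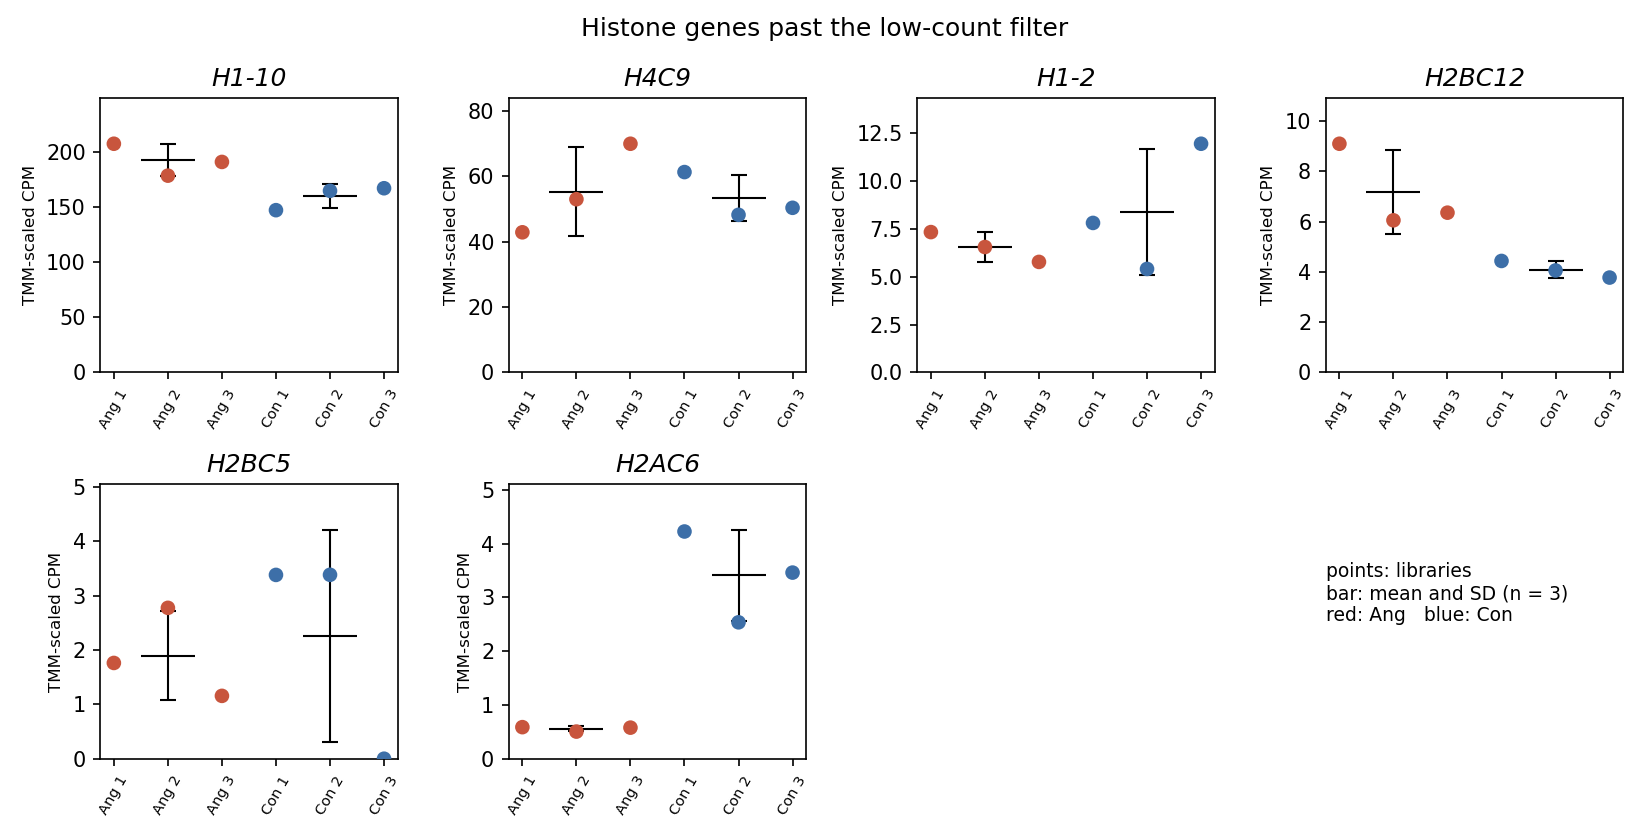
TMM-scaled CPM of the 6 tested histone genes, with a point for each Ang (left) and Con (right) library and a bar for the mean ± SD (n = 3 each). H1-10 and H2BC12 lie higher in every Ang library than in any Con library, H2AC6 lies lower, and no gene passed the test.

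H2AC6 was the core histone gene with the largest fold change among the 6. It had 2 counts in each Ang library, and 20, 15 and 11 counts in Con libraries 1 to 3. This gene (chr6:26124145-26139116) encodes a canonical H2A, and its levels were 0.556 ± 0.0453 CPM in Ang and 3.41 ± 0.845 CPM in Con (SD, n = 3 each). The Ang libraries lay below all Con libraries, and their levels are under the limit of 0.757 to 0.861 CPM that a count of 0 allows in them. The gene entered the test only because its Con libraries passed the filter, which no Ang library did, so the values of the fit are conditional on the difference and are given as a description. The log2 fold change was -2.55 ± 0.95, with a 95% interval of -4.42 to -0.68 and an edgeR unadjusted p of 0.00768. The group sums, 6 counts in Ang and 46 in Con, gave a ratio of 0.161 per library total (95% exact Clopper-Pearson interval 0.0561 to 0.378, counting error only). Without Con 1 the gene fell under the filter and was not tested. No gene of GENCODE 29 overlaps its exons on the other strand, which does not settle the strand of its reads.

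H2AC6 set the level of its family. All H2A genes together had 1.15, 0.505 and 0.834 unscaled CPM in Ang, and 4.37, 4.41 and 3.27 in Con, so that the groups did not overlap. Without H2AC6 the family had 0.284 unscaled CPM in Ang and 0.621 in Con. The other listed H2A genes had few counts: H2AC20 had 1 in Ang 1 and 6 in Con 2, H2AC11 had 1 and 2 in Con 1 and Con 2, and H2AC18, H2AC19 and H2AC25 had 1 each.

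H2BC12 (chr6:27146418-27146798), an H2B gene, had 9.10, 6.05 and 6.35 CPM in Ang and 4.43, 4.06 and 3.77 CPM in Con. Each Ang library was above each Con library. The log2 fold change was 0.80 ± 0.52, with a 95% interval of -0.23 to 1.83, and did not pass the test. The sums were 77 counts in Ang and 57 in Con, a ratio of 1.67 per library total (exact interval 1.17 to 2.39, counting error only, while the interval from edgeR includes 0). H2BC5 (chr6:26158146-26171349) had 6, 11 and 4 counts in Ang and 16, 20 and 0 in Con, and a log2 fold change of -0.31 ± 0.81. Its groups overlapped, and the value changed sign to 0.23 by limma-voom.

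Other H2B genes fell below the filter and show how uneven low counts were. H2BC15 had 6, 0 and 0 counts in Ang and 9, 10 and 8 in Con, a ratio of sums of 0.274 per library total (exact interval 0.0925 to 0.678, counting error only). On the other strand, H2AC15, which had no row, covers 7.18% of the exon bases of H2BC15. H2BC6 had 12, 0 and 5 counts in Ang and 0 in every Con library, with most of the Ang counts in Ang 1. Of its exon bases, 28.2% lie under an antisense gene, ENSG00000283064, with 22, 9 and 8 counts in Ang and 20, 32 and 19 in Con. H2BC18 had 0, 5 and 3 counts in Ang and 0 in every Con library, and 5.54% of its exon bases lie under FCGR1A on the other strand. H2BC4 had 0 counts in every Ang library, and 8 in Con 2 and 0 in the other Con libraries. H2BC11 had 1, 0 and 2 counts in Ang and 5 in Con 2. H2BC21 had 1 count and H2BC26 had 2, all in Ang. The H2B family summed to 12.3 ± 3.49 unscaled CPM in Ang and 9.28 ± 3.20 in Con.

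H4C9 (chr6:27138588-27139881), which encodes histone H4, was the core histone gene with the most counts. Its levels were 42.8, 52.9 and 69.9 CPM in Ang and 61.2, 48.2 and 50.3 CPM in Con. The groups overlapped, and Ang 1 and Ang 3 were the lowest and the highest of all libraries. The log2 fold change was 0.05 ± 0.21, with a 95% interval of -0.35 to 0.46. H4C8 had 3, 4 and 0 counts in Ang and 0, 4 and 2 in Con, and H4C2 had 1 count in Con 2.

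**Figure D4:**
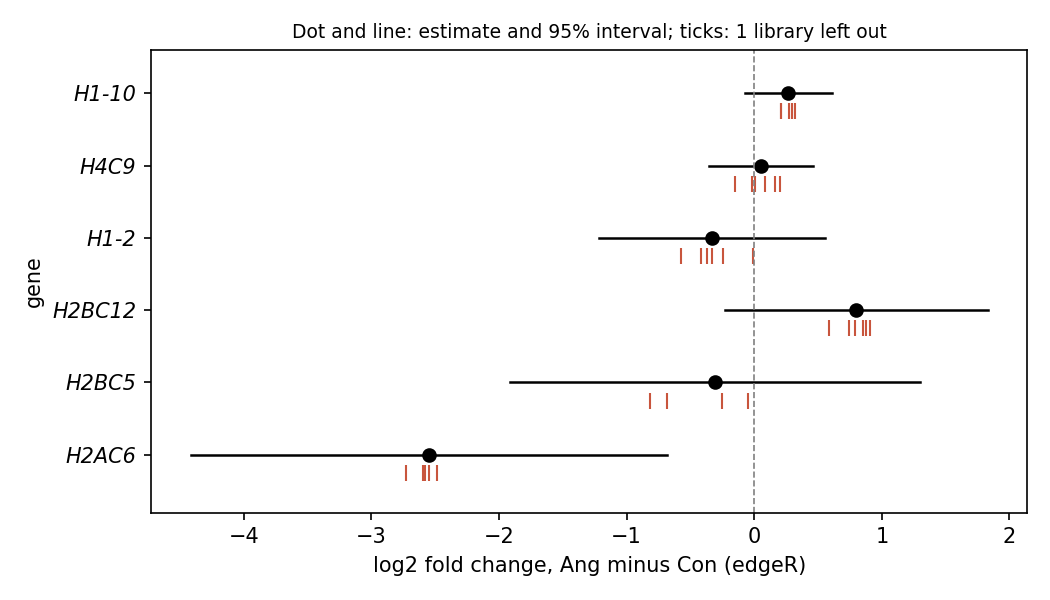
Log2 fold change, Ang minus Con, of the 6 tested histone genes by edgeR, with 95% intervals (lines) and the values with 1 library left out (ticks). The interval of H2AC6, which passed the filter through its Con libraries alone, lies below 0, the others cross 0, and H1-10 and H4C9 have the narrowest intervals.

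The interval lay within 2-fold both ways for 2 of the 6 members, H1-10 and H4C9, and for 64.2% of all genes. The 25 listed members together had 264 ± 11.5 unscaled CPM in Ang and 237 ± 16.7 in Con. Without H1-10 they had 74.9 ± 9.29 in Ang and 76.2 ± 7.35 in Con, a difference smaller than either SD.

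The strand ratio was also added as a term in the edgeR fit, a choice made after seeing the data. With it the log2 fold change was 0.27 for H1-10 and -2.56 for H2AC6, and 0 members were called. The term takes up only differences among libraries, so it cannot address a strand orientation common to all of them.

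Replication-independent histone variants, which replace core histones outside DNA replication, did not pass the test either. Of 23 genes, 11 had a row and 9 were tested, with 3 above 0, 6 below 0 and a median log2 fold change of -0.12. H2AX, the variant phosphorylated at DNA breaks, whose gene makes both stem-loop and polyadenylated mRNA, had 22.01, 16.1 and 17.3 CPM in Ang and 6.97, 14.5 and 9.75 CPM in Con. Its groups did not overlap, and its log2 fold change was 0.81 ± 0.33 with an edgeR unadjusted p of 0.0154. Under 0.05, edgeR counted 1 of the 9 higher and 0 lower in Ang, against 1.42% and 1.98% of all genes. H3-3B, which encodes H3.3, had 149 ± 30.4 CPM in Ang and 123 ± 25.9 CPM in Con. CENPA, the centromeric H3, had 1.85 ± 2.28 CPM in Ang and 4.02 ± 2.24 CPM in Con. H2AJ had 6.63 ± 0.414 CPM in Ang and 10.5 ± 7.004 CPM in Con, and MACROH2A1 had 127 ± 14.1 CPM in Ang and 138 ± 28.8 CPM in Con.

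Genes that transcribe histone genes and process their mRNA numbered 36, of which 34 were tested, with 19 above 0, 15 below 0 and a median of 0.03. At an unadjusted p under 0.05 edgeR counted 1 of the 34 higher and 1 lower in Ang, against 1.42% and 1.98% of all genes. Without overlap, Ang lay above Con in 2 and below Con in 1, against 3.62% and 4.54% of all genes. NPAT, the coactivator of histone transcription, had 26.4, 24.7 and 16.8 CPM in Ang and 35.7, 33.8 and 30.8 CPM in Con. Every Ang library lay below every Con library, with a log2 fold change of -0.56 ± 0.26 and an edgeR unadjusted p of 0.0285. UPF1, a helicase that takes part in histone mRNA decay, had 43.4 ± 7.79 CPM in Ang and 31.0 ± 9.39 CPM in Con, without overlap and with a log2 fold change of 0.47 ± 0.23 and an edgeR unadjusted p of 0.0453. E2F1, an activator of S-phase genes, had 15.9 ± 4.25 CPM in Ang and 10.4 ± 5.12 CPM in Con, and CDK2, the kinase that phosphorylates NPAT, had 21.6 ± 8.67 CPM in Ang and 15.2 ± 9.39 CPM in Con. The elongation factor SUPT5H had 85.5 ± 9.96 CPM in Ang and 88.3 ± 6.90 CPM in Con. SRRT, a nuclear RNA processing factor, had 74.6 ± 3.41 CPM in Ang and 70.4 ± 4.61 CPM in Con.

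Histone chaperones and deposition factors numbered 29, of which 28 were tested, with 16 above 0, 12 below 0 and a median of 0.01. Without overlap, Ang lay above Con in 1 of the 28 and below Con in 1, against 3.62% and 4.54% of all genes. NASP, which binds H3 and H4 dimers, had 135 ± 9.24 CPM in Ang and 157 ± 0.931 CPM in Con, without overlap, and a log2 fold change of -0.23 ± 0.17. NAP1L1, an H2A and H2B chaperone, had 522 ± 16.8 CPM in Ang and 479 ± 19.6 CPM in Con, also without overlap. NPM1, the nucleolar chaperone, had 654 ± 23.1 CPM in Ang and 662 ± 71.0 CPM in Con. SUPT6H and ATRX had log2 fold changes of 0.23 ± 0.19 and 0.18 ± 0.18, and RBBP4 of -0.18 ± 0.18. None of the genes in these 3 lists was called after adjustment.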

How the data were processed

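The authors deposited 1 table of read counts per Ensembl gene for each of 6 libraries. Per the submitters' processing notes, HTSeq 0.9.1, DESeq 1.39.0 and GRCh38 were used; the aligner, annotation release and strand setting were not given in the sources used here. Per the labels' protocols, RNA was selected on poly-T beads and fragments were amplified by PCR.

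Gene IDs were matched to symbols (28918 of 28979) and to GENCODE 29 (28192). H2AC18 and H2AC19 were matched through older names. Counts were tested with edgeR 4.0.16 in R 4.3.3 (filterByExpr, TMM scaling, robust quasi-likelihood, no replicate term, Benjamini-Hochberg threshold 0.05), checked on simulated counts. CPM are TMM scaled unless called unscaled; log2 fold changes are Ang minus Con ± SE. DESeq2 1.42.0, limma-voom (limma 3.58.1), RLE scaling, other filters, a replicate block and leaving out each library were alternatives. Strand pairs needed 90% exon overlap (bedtools 2.31.1) and 300 counts.

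All tested members, then members by total count, were named, with the 4 smallest p and 2 highest means of each context list. One member selected by symbol is not reported here. Members and lists were chosen with earlier results of these data known. No pair of libraries held identical values, and the chi-square per gene within groups was 3.60 to 3.92 in Ang and 6.79 to 12.8 in Con. Same-numbered libraries deviated together with correlations of 0.032 to 0.052, against -0.056 to 0.020 for pairs of unlike number. A weak pairing by number is thus not excluded, and the main fit has no replicate term.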

Additional observations from a re-analysis of the deposited data

How the results depend on the processing

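No histone gene and no gene of the 3 context lists was called by adjusted p under any alternative. All 75 alternative log2 fold changes of members stayed uncalled, and 4 changed sign. Over all genes, calls numbered 0 with all libraries, 0 to 40 with 1 library left out (1 without Con 1 and 40 without Con 2) and 4 with the strand ratio term, which was chosen after seeing the data. Genes at an unadjusted p under 0.05 numbered 494, against 827 without a filter, 942 with the strand ratio term and 408 to 1633 with 1 library left out, the highest without Con 2. Members at that level numbered 1, against 3 without a filter, 2 with the strand ratio term and 0 to 2 with 1 library left out (0 without Con 1 and 2 without Con 2). With no filter 25 members could be tested in place of 6. The cause was not tested.

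With the member of most counts left out, the family sums in Ang and Con were 6.90 and 8.83 unscaled CPM for H1, 0.284 and 0.621 for H2A, 5.31 and 5.16 for H2B, and 0.624 and 0.504 for H4. Counting only libraries with at least 5 counts, 13 members were detected in place of 25. With a replicate block, 0 genes and 0 members were called, and the log2 fold change of H2BC5 was 0.00. The log2 fold change with 1 library left out ran from 0.21 to 0.32 for H1-10, from -0.15 to 0.20 for H4C9, from -0.57 to -0.01 for H1-2, from 0.59 to 0.91 for H2BC12, from -0.82 to -0.05 for H2BC5 and from -2.73 to -2.48 for H2AC6. H2BC5 fell under the filter without Con 1 and without Con 2. The edgeR adjusted p of H2AC6 was 0.294 without Con 2, 0.578 with the strand ratio term and 0.865 without a filter. At a few counts per library, little can be seen of most core histone genes, and the part of depth in this was not tested.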

Other observations

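Of 5 histone pseudogenes with a row, H1-9P had 1 count, H1-12P 7 and H2BC27P 8 over all libraries, while H2BC20P and H2BC19P had more; these genes were picked after their values were seen. H2BC20P had 24.5 ± 4.69 CPM in Ang and 32.3 ± 7.43 CPM in Con, and H2BC19P had 16.5 ± 5.19 CPM in Ang and 21.4 ± 3.91 CPM in Con (SD, n = 3 each). Neither was called by edgeR after adjustment.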
